A study of Mus musculus with 47 samples.

Results

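The genes described here are 38 markers of the excitatory projection neurons of the mouse cerebral cortex, chosen by symbol and found as 38 of the 48795 gene rows of the count and FPKM tables. They comprise 16 upper layer genes, 16 deep layer genes and 4 genes listed for excitatory neurons of any layer (the all-excitatory set). The all-excitatory set holds Slc17a7, Slc17a6, Neurod6 and Neurod2, of which Slc17a6 varied with the upper layer genes, as given below. The other 2 genes, Oprk1 and Parm1, were placed in no layer set. All 38 passed the filter on low counts that left 19174 genes for testing. The study sequenced cortex RNA from C57BL mice at 6 months of age in 6 genotypes. The groups without Q140 were wild type (WT), Ccdc82+/- and Ccdc82-/-, and those with it Q140, Q140 X Ccdc82+/- and Q140 X Ccdc82-/-. Each had 4 females and 4 males, except for 3 females and 4 males in Q140 X Ccdc82-/-. Q140 is a knock-in allele of huntingtin (Htt) with an expanded CAG repeat, used as a Huntington's disease model, and all Q140 mice were heterozygous for it, per the sample titles. Ccdc82, a gene for a coiled-coil protein, is the gene altered in the Ccdc82+/- and Ccdc82-/- mice. The 3 Q140 groups were set against the 3 groups with the same Ccdc82 genotype, and their mean difference is called the pooled Q140 effect.

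Excitatory neurons of the neocortex are stacked in layers that are made at different times of development and send their axons to different targets. Upper layer neurons connect mainly within the cortex, and layer 4 among them receives input from the thalamus. Deep layers include the neurons that project out of the cortex, from layer 5 to the striatum, brainstem and spinal cord and from layer 6 to the thalamus. Each class is marked by transcription factors, adhesion molecules and signalling proteins, but many markers are graded between layers and also vary between cortical areas.

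Total counts ran from 43554594 to 61370843 per library, with a median of 50473683. Ccdc82 ran from 7.70 to 10.3 FPKM in WT, 5.22 to 6.58 FPKM in Ccdc82+/- and 2.48 to 3.46 FPKM in Ccdc82-/-, and from 7.55 to 9.11, 5.69 to 7.20 and 2.55 to 3.19 FPKM in the Q140 groups of the same order, so the 3 Ccdc82 genotypes did not overlap. The markers of neocortical excitatory neurons were present in every library, while defining markers of neighbouring structures were near 0. The thalamic genes Gbx2 and Shox2 had mean levels of 0.00593 and 0.00653 FPKM, the hippocampal gene Iyd 0.0626 FPKM and the choroid plexus genes Folr1 and Kcne2 0.0558 and 0.0416 FPKM. WT male 1 (WT M1) stood apart within its genotype in 6 of the 38 genes and Q140 X Ccdc82+/- male 4 in 4 of them. The main gene calls, pair counts and named relations are therefore also given without both mice. Group means and medians over a gene list are given with all mice only. The RNA is from whole pieces of cortex, so fewer cells of a type and less RNA per cell cannot be told apart.

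Promoters of 31 of the 38 genes were found in RefSeq (build GRCm38.p6), each 300 bases long, with 250 bases before the start site and 50 after it. Unc5d, Crym, Nxph4, Calb1, Scnn1a, Oprk1 and Foxp2 had no entry. The 5 shown are those of the genes on which the results below turn: Lamp5 (chr2:136052089-136052388, plus strand), the upper layer gene lower with Q140; Rasgrf2 (chr13:92131779-92132078, minus strand), an upper layer gene that varied opposite to deep layer genes; Lmo3 (chr6:138581919-138582218, minus strand), listed as upper and varying with deep layer genes; and the deep layer genes Pcp4 (chr16:96467356-96467655, plus strand) and Syt6 (chr3:103574995-103575294, plus strand). Capitals mark matches on either strand to 3 motifs, namely CANNTG (E-box, bound by factors such as Neurod2 and Neurod6), AGGTGTGA (T-box, the class of Tbr1) and AGGTCA (nuclear receptor half-site, the class of Rorb).
Lamp5: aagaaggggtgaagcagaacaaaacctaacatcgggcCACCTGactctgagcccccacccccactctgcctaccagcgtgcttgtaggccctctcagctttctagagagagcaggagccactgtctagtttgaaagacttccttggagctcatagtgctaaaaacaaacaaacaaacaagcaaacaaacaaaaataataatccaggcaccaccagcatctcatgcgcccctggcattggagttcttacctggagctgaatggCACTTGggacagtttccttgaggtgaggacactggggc
Rasgrf2: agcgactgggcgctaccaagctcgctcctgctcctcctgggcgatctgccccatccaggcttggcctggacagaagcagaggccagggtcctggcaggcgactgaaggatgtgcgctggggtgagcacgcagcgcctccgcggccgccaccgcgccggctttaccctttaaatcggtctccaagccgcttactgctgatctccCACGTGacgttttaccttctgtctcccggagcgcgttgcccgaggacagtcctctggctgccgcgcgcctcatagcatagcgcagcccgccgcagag
Lmo3: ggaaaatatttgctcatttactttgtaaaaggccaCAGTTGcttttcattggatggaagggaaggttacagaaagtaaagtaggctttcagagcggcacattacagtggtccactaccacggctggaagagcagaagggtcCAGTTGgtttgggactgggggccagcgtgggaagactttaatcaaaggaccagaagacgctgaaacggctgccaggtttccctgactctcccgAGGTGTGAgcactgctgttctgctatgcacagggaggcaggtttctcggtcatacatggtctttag
Pcp4: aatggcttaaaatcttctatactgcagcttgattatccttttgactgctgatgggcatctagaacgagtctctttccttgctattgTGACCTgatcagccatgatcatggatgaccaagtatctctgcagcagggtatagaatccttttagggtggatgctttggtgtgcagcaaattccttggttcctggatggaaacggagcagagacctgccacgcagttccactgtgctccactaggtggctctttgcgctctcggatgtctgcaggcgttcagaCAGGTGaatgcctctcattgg
Syt6: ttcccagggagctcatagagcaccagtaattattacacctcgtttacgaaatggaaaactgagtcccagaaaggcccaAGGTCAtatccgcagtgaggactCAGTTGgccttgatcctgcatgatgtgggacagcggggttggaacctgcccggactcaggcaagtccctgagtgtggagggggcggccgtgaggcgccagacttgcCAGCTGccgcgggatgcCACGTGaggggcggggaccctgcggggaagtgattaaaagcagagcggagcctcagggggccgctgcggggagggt

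The T-box letters occurred in the Lmo3 promoter alone among the 31, against 1.28% of 32851 RefSeq promoters of the same length. The half-site occurred in 3 promoters, those of the deep layer genes Syt6, Cplx3 and Pcp4, against 16.3% of all promoters. The E-box occurred in 19 of 31, against 72.3% of all promoters. CAGATG, a specific form of the E-box CANNTG, occurred in 1 of 31 (Neurod2), against 17.2%. Of 13 upper layer and 13 deep layer promoters, 6 and 9 held the GC box GGGCGG, against 35.7% of all. The POU octamer ATGCAAAT and the MEF2 motif occurred in 0 of the 31, against 1.74% and 3.69% of all promoters, and TATAAA in 2 (Mef2c and Sulf2), against 13.6%. The median GC content was 66% for the 13 upper layer and 61% for the 13 deep layer promoters, against 52.7% for all. These are matches of letters in a window and describe no binding.

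Levels per length (FPKM, read fragments per length of gene and depth of library) ran from a mean of 0.123 FPKM in Nxph4 to 224.6 FPKM in Slc17a7. Among upper layer genes Lamp5, a lysosome-associated membrane protein family member, was highest at 113.1 ± 8.65 FPKM (SD, n = 47). Mef2c, a MADS-box factor of excitatory neurons, followed at 70.1 ± 3.62 FPKM, and Rasgrf2, a Ras exchange factor of layers 2 and 3, at 35.8 ± 2.21 FPKM. The lowest was Mdga1, an adhesion molecule of layers 2 and 3, at 1.25 ± 0.429 FPKM. Calbindin (Calb1), the homeodomain factors Cux2 and Cux1 and the POU factors Pou3f3 and Pou3f2 had means of 25.5, 21.4, 8.20, 23.3 and 13.8 FPKM. The layer 4 genes Rspo1 (a Wnt pathway ligand), Rorb (a nuclear receptor), Whrn (the scaffold whirlin) and Scnn1a (a sodium channel subunit) had means of 15.2, 7.61, 7.20 and 2.43 FPKM. Lmo3, a LIM-only cofactor, Lhx2, a LIM homeodomain factor, and Unc5d, a netrin receptor, had means of 15.95, 14.5 and 9.37 FPKM.

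Among deep layer genes Pcp4, a calmodulin regulator, was highest at 112.8 ± 18.1 FPKM (SD, n = 47), close to Lamp5. The T-box factor Tbr1 was at 29.6 ± 1.56 FPKM and the sulfatase Sulf2 at 18.5 ± 1.29 FPKM. The lowest were Foxp2, a forkhead factor of layer 6, at 0.242 ± 0.0745 FPKM and Nxph4, a neurexophilin of the deepest layer, at 0.123 ± 0.0441 FPKM. The layer 5 genes Fezf2, a zinc finger factor of subcerebral neurons, and Etv1, an ETS factor, were at 13.0 and 11.3 FPKM. The layer 6 genes Tle4 (a corepressor), Hs3st4 (a heparan sulfate sulfotransferase), Crym (a thyroid hormone binding protein), Syt6 (a synaptotagmin) and Ntsr1 (a neurotensin receptor) were at 8.61, 8.15, 4.73, 1.37 and 1.13 FPKM. Rprm, Tshz2 (a zinc finger factor of layer 5), Sema3e (a guidance ligand) and Cplx3 (a complexin of subplate neurons) were at 8.21, 7.46, 3.48 and 2.89 FPKM. Slc17a7, the vesicular glutamate transporter of most cortical neurons, had the highest level of all 38 at 224.6 ± 8.97 FPKM. Slc17a6, the second glutamate transporter, was at 7.04 ± 0.748 FPKM, and the neuronal bHLH factors Neurod6 and Neurod2 were at 36.4 ± 3.33 and 33.6 ± 2.15 FPKM. Parm1, a mucin-like membrane protein, was at 18.9 ± 0.981 FPKM and Oprk1, the kappa opioid receptor, at 0.184 ± 0.0634 FPKM. The counts of Pcp4 may hold reads of Igsf5, whose exons overlap it on the same strand in GENCODE M21.

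**Figure D1:**
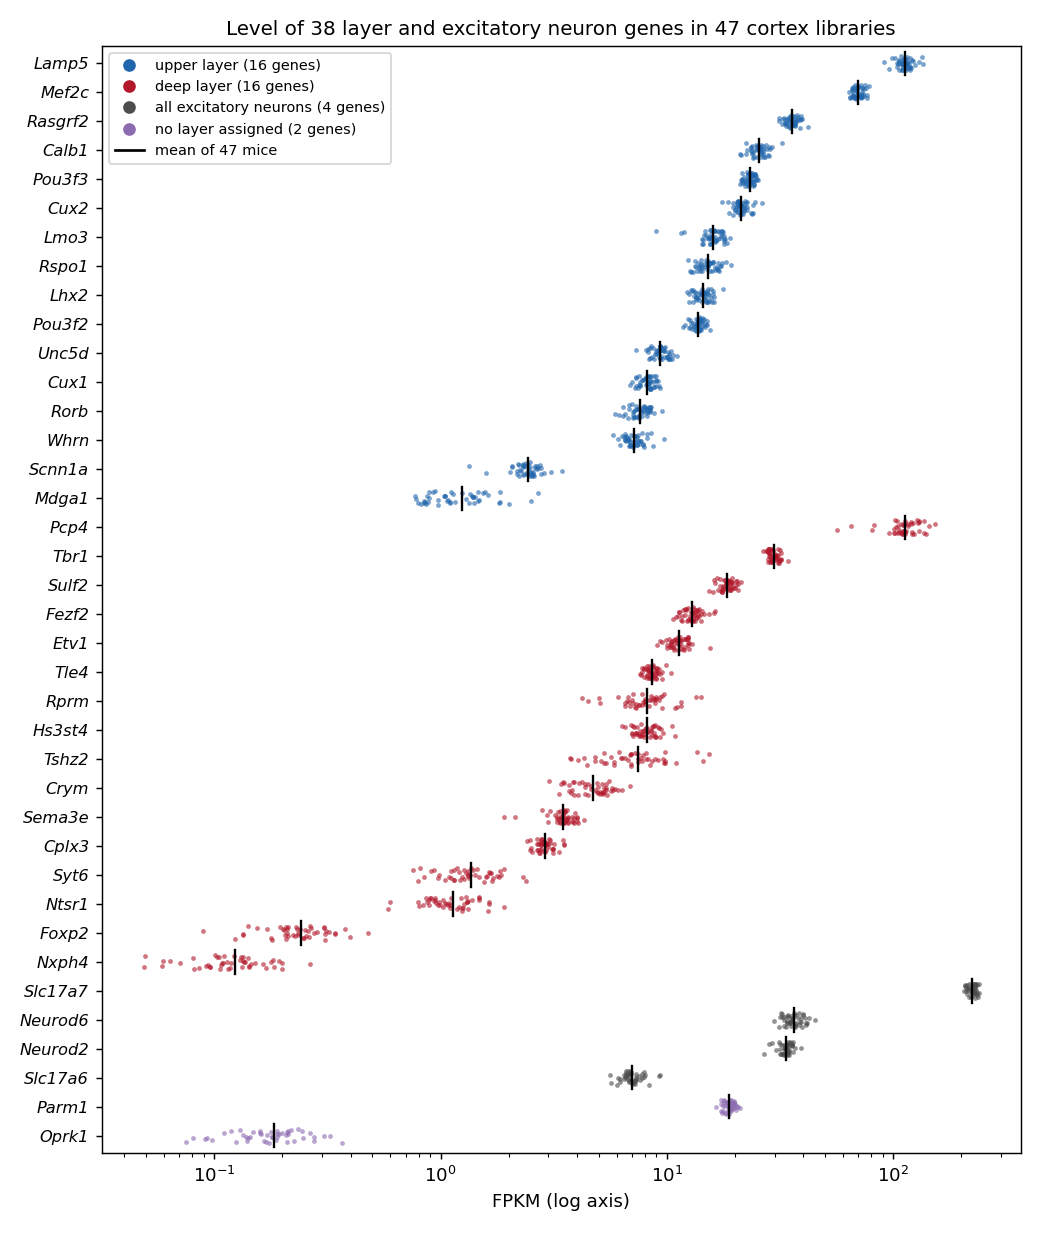
FPKM of each of the 38 genes (log axis) in the 47 libraries, 1 point per mouse, with the mean of all mice as a black bar; genes are ordered by mean level within their set. Slc17a7 varied least, from 205.4 to 239.5 FPKM, while the points of Tshz2, Syt6, Foxp2 and Nxph4 spread over a several-fold range.

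Several of these genes varied several-fold between mice. The highest mouse exceeded the lowest 5.44-fold in Nxph4, which averaged 10.4 counts per library, 5.34-fold in Foxp2, 4.88-fold in Oprk1, 4.13-fold in Tshz2, 3.50-fold in Mdga1, 3.36-fold in Rprm, 3.25-fold in Ntsr1, 3.16-fold in Syt6 and 2.72-fold in Pcp4. The corresponding ratio was 1.17 for Slc17a7, 1.203 for Pou3f3 and 1.22 for Mef2c. After removal of genotype and sex means, the SD of log2 CPM between mice had a median of 0.11 over the 16 upper layer genes and 0.23 over the 16 deep layer genes, against 0.12 over all 19174 tested genes. Low counts inflate such an SD, so each gene was also set beside genes within 0.5 log2 CPM of its own level. On that scale 37 of the 38 exceeded the median gene of like level, by a median ratio of 1.98 for upper and 2.27 for deep layer genes. Tshz2, at 7.14 times the median of its level, Pcp4 at 4.34 and Mdga1 at 4.12 were the most variable, and Nxph4 alone was below 1, at 0.842.

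The variation was shared. After genotype and sex means were removed, genes of the same layer set tended to be high in the same mice, and upper layer genes tended to be low where deep layer genes were high. Of the 120 pairs of deep layer genes, 38 had a Pearson r of 0.5 or more across the 47 mice, and of the 120 pairs of upper layer genes 29 did, against 1.42% of all pairs of tested genes. Of the 256 pairs of an upper with a deep layer gene, 69 had an r of -0.5 or less, against 1.18% of all pairs of tested genes, and 5 had an r of 0.5 or more. The median r was 0.331 for deep pairs, 0.324 for upper pairs and -0.317 for mixed pairs, against -0.001 for all pairs. With the means of the 6 plate columns of the well addresses also removed, the 3 counts were 37, 32 and 71. Without WT M1 and Q140 X Ccdc82+/- M4 they were 42, 28 and 64. The pairs share libraries and normalisation and are not independent, and the counts are a description.

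**Figure D2:**
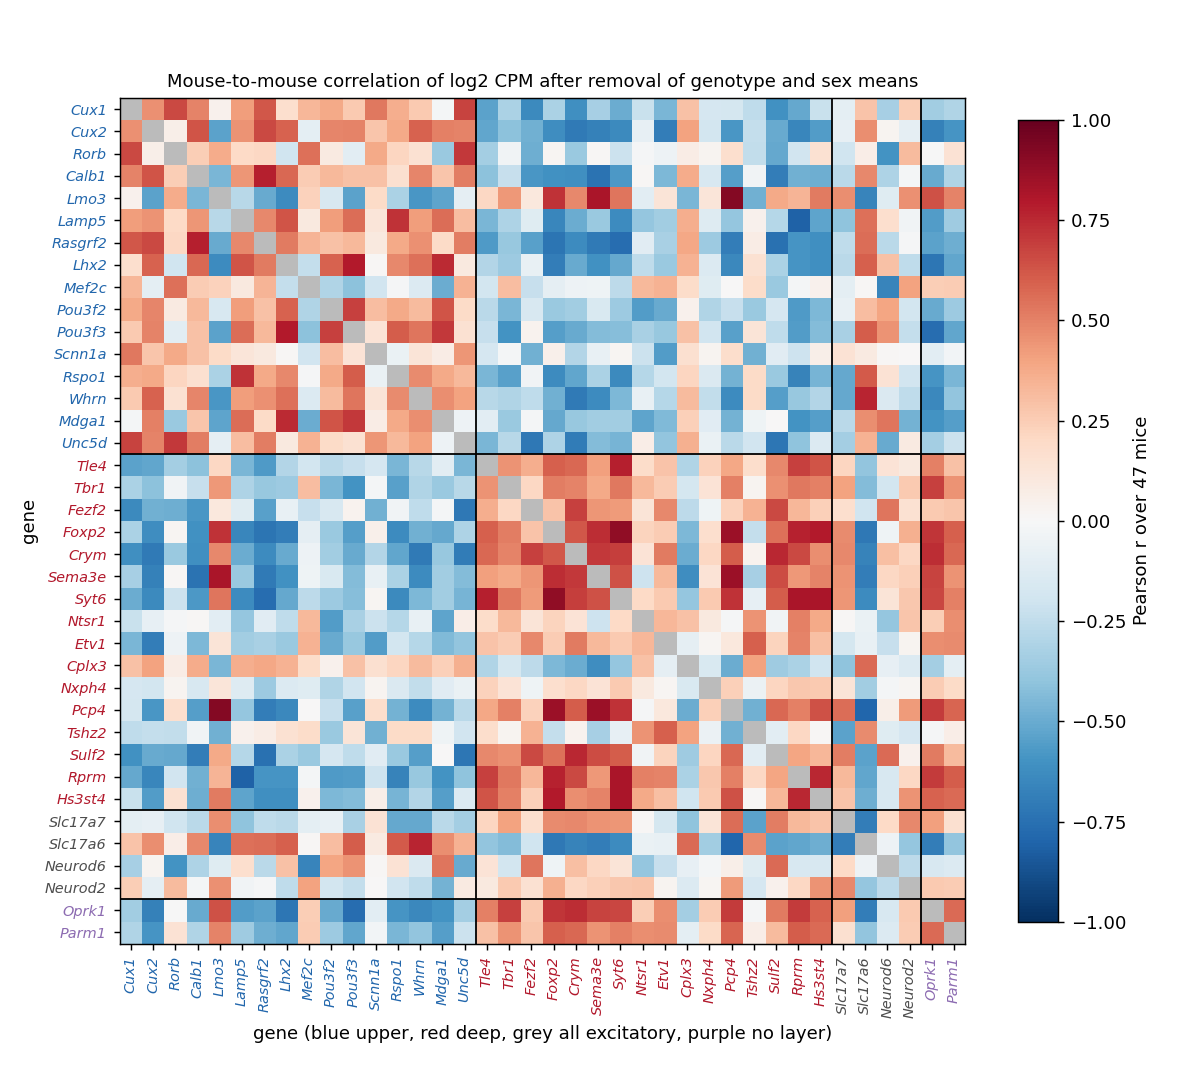
Pearson r between each pair of the 38 genes over 47 mice, from log2 CPM with genotype and sex means removed (red positive, blue negative, diagonal left out); black lines separate upper layer, deep layer, all-excitatory and unassigned genes. Both layer blocks are mainly red and the block between them mainly blue, and Lmo3 and Cplx3 take the colours of the opposite set.

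Single pairs were tested by permuting mice within genotype and sex, with p-values adjusted over all 703 pairs. By Pearson r 375 pairs passed an adjusted p of 0.05, and by Spearman rho 317 did. The share of all pairs of tested genes that would pass was not computed, so these 2 counts have no base rate. The adjusted p was 0.000153 for each r given next (permutation p = 1e-05, the smallest that 100000 permutations can give) and lay between 0.000251 and 0.000312 for rho (permutation p = 1e-05, or 2e-05 for Lamp5 with Rprm). Foxp2 and Syt6, both of layer 6, had r = 0.889 and rho = 0.868, and r = 0.875 without the 2 mice farthest from the median of Foxp2. Within the 6 plate columns their r ran from 0.750 to 0.972. Among upper layer genes the pair of Lhx2 and Pou3f3 had r = 0.791 and rho = 0.806, with 0.766 without the 2 farthest mice and 0.649 to 0.912 within plate columns. Calb1 and Rasgrf2 had r = 0.776 and rho = 0.751, with 0.720 without the 2 farthest mice and 0.713 to 0.915 within plate columns. Each of these 3 pairs was positive in every plate column, and without WT M1 and Q140 X Ccdc82+/- M4 r was 0.895, 0.777 and 0.742 in the order given.

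Between the sets, Lamp5 and Rprm, a gene of layer 6 neurons, had r = -0.811 and rho = -0.763, with -0.811 without the 2 farthest mice and -0.949 to -0.642 within plate columns. Rasgrf2 and Syt6 had r = -0.761 and rho = -0.739, with -0.711 without the 2 farthest mice and -0.975 to -0.401 within plate columns. Pcp4 and the glutamate transporter gene Slc17a6 had r = -0.796 and rho = -0.729, with -0.705 without the 2 farthest mice and -0.918 to -0.330 within plate columns. Slc17a6 had a median r of 0.464 with upper and -0.462 with deep layer genes, and Slc17a7 had medians of -0.259 and 0.307. Without WT M1 and Q140 X Ccdc82+/- M4 the r of these 3 negative pairs was -0.814, -0.741 and -0.683.

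Lmo3 and Cplx3 varied with the set opposite to the one in which they were listed. Lmo3, listed as upper, had a median r of -0.318 with the other 15 upper layer genes and 0.359 with the deep layer genes. With Pcp4 it had the highest r of all 703 pairs, at 0.915 (rho = 0.854), with 0.848 without the 2 farthest mice and 0.698 to 0.981 within plate columns (permutation p = 1e-05 for both, adjusted p = 0.000153 for r and 0.000251 for rho). Lmo3 ranged from 8.995 to 19.1 FPKM over the 47 mice, and its r with Pcp4 was 0.827 without WT M1 and Q140 X Ccdc82+/- M4. Cplx3, listed as deep, had a median r of 0.293 with the upper layer genes and -0.299 with the other 15 deep layer genes. Without the same 2 mice these medians were -0.316 and 0.307 for Lmo3 and 0.181 and -0.194 for Cplx3. Oprk1 and Parm1, left without a layer, had median r values of 0.553 and 0.458 with deep and -0.521 and -0.359 with upper layer genes. Mef2c, Tshz2 and Neurod6 had medians within 0.1 of 0 with both sets, between -0.0545 and 0.0299.

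The same mice differed in oligodendrocyte genes. The mean of 5 oligodendrocyte markers (Mbp, Mog, Mag, Cnp and Mobp), the components and partners of myelin, was related positively to 7 of 16 deep layer genes and 1 of 16 upper layer genes (Lmo3), and negatively to 8 of 16 upper layer genes, at an adjusted p under 0.05 over 228 pairs of a gene with a cell type list. Oprk1 and Parm1 were also related positively to it. The share of all tested genes related to the oligodendrocyte mean at this threshold was not computed. The counts thus do not show whether such relations are particular to layer genes. The other 5 cell type lists (interneuron, astrocyte, microglia, endothelial and meningeal fibroblast markers) gave 9 of the 27 pairs called in all. Hs3st4 had r = 0.718 (permutation p = 1e-05, adjusted p = 0.00152) and rho = 0.763 (permutation p = 1e-05, adjusted p = 0.00076) with the oligodendrocyte mean, with 0.689 without the 2 farthest mice and 0.522 to 0.855 within plate columns. Lhx2 had r = -0.671 (permutation p = 7e-05, adjusted p = 0.00266) and rho = -0.669 (permutation p = 1e-05, adjusted p = 0.00076), with -0.627 without the 2 farthest mice and -0.838 to -0.438 within plate columns. Without WT M1 and Q140 X Ccdc82+/- M4 these r values were 0.694 and -0.581. The summed level of the 5 markers ran from 189.7 to 308.2 FPKM in WT, 241.7 to 270.2 in Ccdc82+/-, 237.8 to 314.5 in Ccdc82-/-, 232.1 to 343.6 in Q140, 236.5 to 280.9 in Q140 X Ccdc82+/- and 218.4 to 257.1 in Q140 X Ccdc82-/-. With the oligodendrocyte mean removed from every gene, 25 of 120 deep pairs and 17 of 120 upper pairs had an r of 0.5 or more, and 37 of 256 mixed pairs an r of -0.5 or less, against 38, 29 and 69 without that step. Whether oligodendrocyte content has a part in these relations was not tested beyond this.

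Of 190 pairs of a gene with a list of region markers (striatum, thalamus, hippocampus, claustrum and choroid plexus), 3 were called. The count depended on the scale: 18 pairs were called on log2(FPKM + 0.1) and 10 with plate column means removed, the same 3 among them each time. Tshz2 had r = 0.716 and rho = 0.712 with the mean of 8 hippocampal markers (permutation p = 1e-05, adjusted p = 0.0019 for both), with 0.700 without the 2 farthest mice and 0.394 to 0.963 within plate columns. Tshz2 ran from 3.73 to 15.4 FPKM, while the 9 hippocampal markers together summed to between 7.77 and 10.6 FPKM and 6 of them averaged below 1 FPKM. The sum hides variation of low markers, since C1ql2 ran from 0.0623 to 2.04 FPKM and Trpc6 from 3.03 to 5.23 FPKM. The list mean is taken on the log2 scale. Etv1 had r = 0.511 with the same list (permutation p = 0.00044, adjusted p = 0.0279), rho = 0.4997 (adjusted p = 0.0479), 0.510 without the 2 farthest mice and 0.355 to 0.751 within plate columns. The third pair was Slc17a7 with the choroid plexus list, at r = -0.523 (adjusted p = 0.0279), with a rho of -0.408 that was not called (adjusted p = 0.0999), -0.489 without the 2 farthest mice and -0.794 to 0.262 within plate columns. Without WT M1 and Q140 X Ccdc82+/- M4, the 2 mice highest in Tshz2 within their genotypes, the r of the 3 pairs was 0.676, 0.592 and -0.450. The part of tissue from these regions in the relations was not tested.

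For each mouse the 16 upper and the 16 deep layer genes were averaged on the log2 CPM scale, relative to the WT mean. The upper mean ran from -0.28 to 0.11 and the deep mean from -0.29 to 0.41. At one end stood Ccdc82+/- M1, with an upper mean of -0.28 and a deep mean of 0.28, and Ccdc82-/- F1, with -0.12 and 0.41. At the other end stood Ccdc82-/- F3, with 0.08 and -0.29, and Ccdc82-/- M4, with 0.09 and -0.21. Mice of 1 genotype thus lay at both ends. The mean ± SD of the upper list was -0.06 ± 0.11 in Ccdc82+/- (n = 8), -0.02 ± 0.08 in Ccdc82-/- (n = 8), -0.06 ± 0.06 in Q140 (n = 8), -0.07 ± 0.05 in Q140 X Ccdc82+/- (n = 8) and -0.02 ± 0.07 in Q140 X Ccdc82-/- (n = 7), with an SD of 0.06 in WT. The deep list was at 0.14 ± 0.11, 0.05 ± 0.23, 0.09 ± 0.12, 0.11 ± 0.12 and 0.05 ± 0.13 in the same order, with an SD of 0.13 in WT. Single WT mice ran from -0.09 to 0.08 for upper and from -0.20 to 0.10 for deep layer genes. WT M1, at 0.07 and -0.18, is part of the WT mean to which all groups are set. The upper minus deep difference moved by -0.04 in the pooled Q140 effect, against an SD between mice of 0.21, and is given without a test. Of the plate columns, the 8 mice of column 4 had the highest deep mean, 0.18 ± 0.10, and column 5 the lowest, -0.01 ± 0.12.

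**Figure D3:**
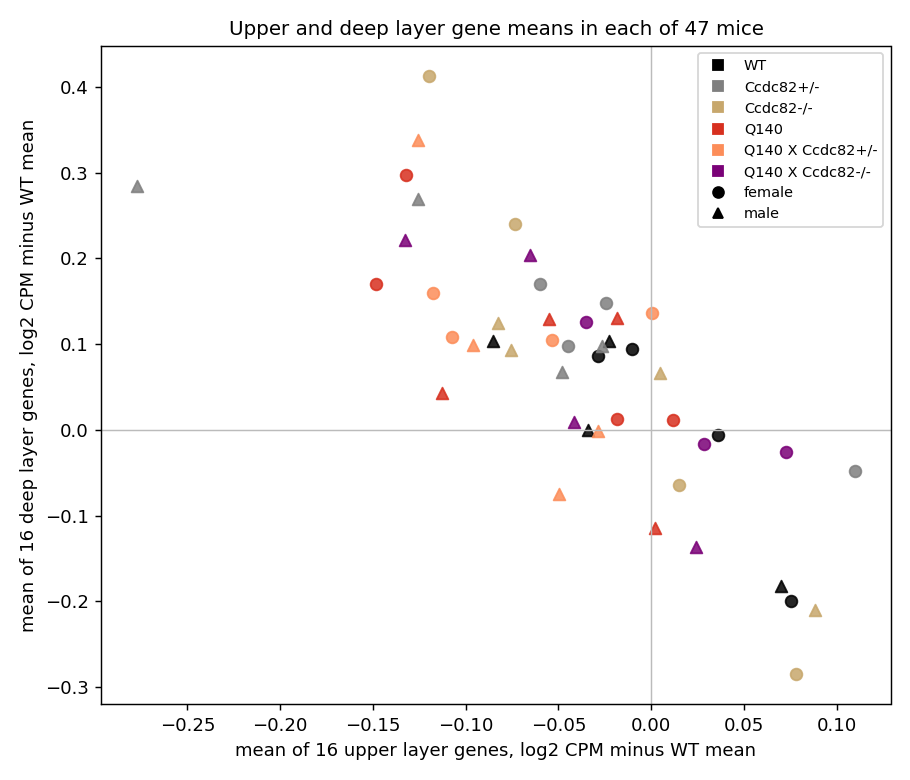
Mean of the 16 upper layer genes (horizontal axis) against the mean of the 16 deep layer genes (vertical axis) in each of the 47 mice, as log2 CPM minus the WT mean of each gene; colours are genotypes, circles females and triangles males. The genotypes overlap along 1 falling band, from -0.28 to 0.11 for upper and from -0.29 to 0.41 for deep layer genes.

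Lamp5 was the 1 gene of the 38 that differed with Q140. It fell, and the other 37, including all 16 deep layer genes, were not called in the pooled Q140 effect, against 0.876% of tested genes called in either direction and 0.537% called lower. In WT, Lamp5 ran from 114.0 FPKM through a median of 119.4 to 134.8 FPKM, and in Q140 from 91.6 through 110.3 to 119.2 FPKM. In Ccdc82+/- it ran from 106.6 through 111.7 to 135.9 FPKM, and in Q140 X Ccdc82+/- from 95.8 through 107.6 to 115.3 FPKM. In Ccdc82-/- it ran from 103.8 through 117.9 to 129.8 FPKM, and in Q140 X Ccdc82-/- from 105.8 through 112.0 to 119.0 FPKM. The median was lower with Q140 in each of the 3 pairs of genotypes, and the groups overlapped in each. The pooled log2 change was -0.11 (SE 0.029, edgeR adjusted p = 0.0420), and 18 of 23 Q140 mice lay below the mean of the mice of their Ccdc82 genotype and sex without Q140.

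Within single genotypes the change in Lamp5 was -0.16 (SE 0.050) for Q140 against WT, -0.10 (SE 0.050) on Ccdc82+/- and -0.08 (SE 0.052) on Ccdc82-/-. None of the 3 was called (edgeR adjusted p = 0.373, 0.954 and 0.9997), and the interaction terms of Q140 with Ccdc82+/- and Ccdc82-/- were 0.05 (SE 0.071) and 0.08 (SE 0.072), also not called. Lamp5 also marks a class of interneurons. Of 13 interneuron markers 0 were called by edgeR in the pooled Q140 effect, and 9 of the 13 lay below 0, with a median of -0.02. At an unadjusted p under 0.05 there were 3 of them, against 9.18% of tested genes. Their sum ran from 496.6 to 554.4 FPKM in WT and from 477.0 to 536.8 FPKM in Q140. Of 7 astrocyte markers 0 were called by edgeR and 4 had an unadjusted p under 0.05, 2 above and 2 below 0, against the same 9.18%. Of 10 striatum markers 1 was called higher by edgeR, with 7 of the 10 below 0. The part of these cells and of striatal tissue in the Lamp5 change was not tested. The call rested on a narrow margin. It was lost when plate column entered the fit (adjusted p = 0.0884), without the filter on low counts (0.0759), without WT M1 and Q140 X Ccdc82+/- M4 (0.0697) and without any 1 of 20 of the 47 libraries, among which Q140 X Ccdc82+/- M1 gave the highest adjusted p, 0.0667. Those 20 included 3 of WT, 1 of Ccdc82+/-, 4 of Ccdc82-/- and 12 with Q140. The log2 change lay between -0.12 and -0.10 with each library left out. With the oligodendrocyte marker mean as a covariate, added after seeing the data, Lamp5 was at -0.12 (edgeR adjusted p = 0.0149) and Rasgrf2 at -0.07 (edgeR adjusted p = 0.0653), while without Ccdc82+/- M1 Cux1 was called as well, at -0.09 (edgeR adjusted p = 0.0362).

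**Figure D4:**
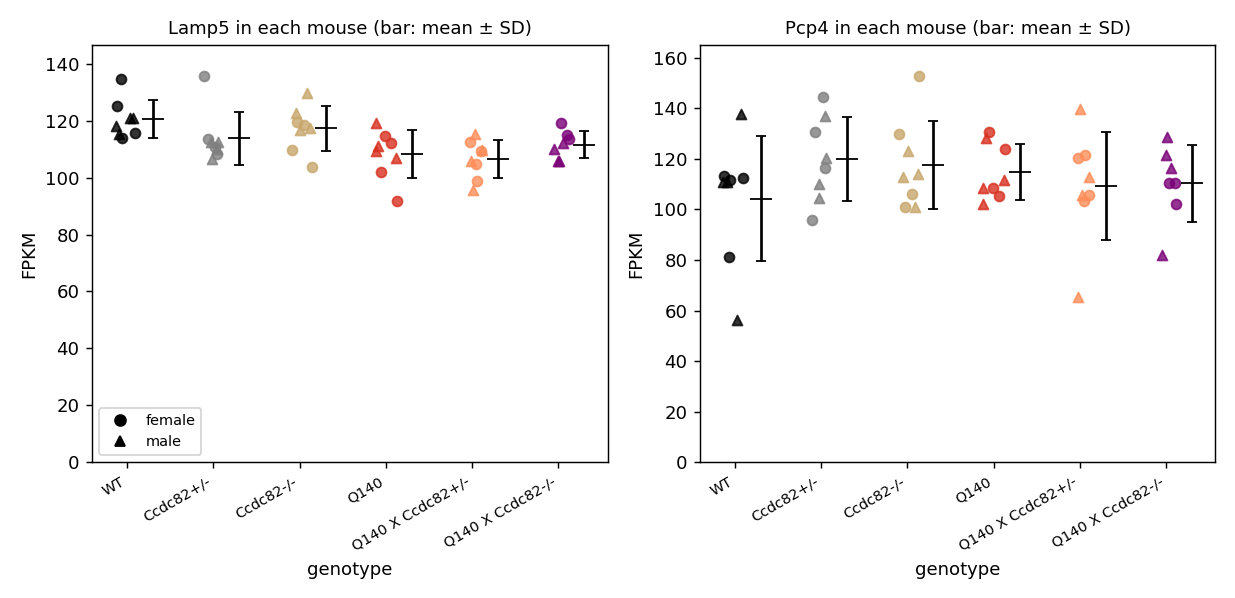
FPKM of the upper layer gene Lamp5 (left) and the deep layer gene Pcp4 (right) in each mouse by genotype, circles for females and triangles for males, with the mean ± SD beside each group. Lamp5 had its 3 lowest group means in the Q140 groups, while Pcp4 spread from 56.3 to 153.0 FPKM with no called difference.

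Beside Lamp5, the upper layer genes with the smallest p-values were Cux1 and Rasgrf2 below 0 and Pou3f2, Lmo3 and Calb1 above 0, none of them called. Cux1 was at -0.07 (SE 0.028, edgeR adjusted p = 0.327) and Rasgrf2 at -0.06 (SE 0.024, edgeR adjusted p = 0.346), with 16 of 23 Q140 mice lower in each. Cux1 had group medians of 8.30, 8.36 and 8.46 FPKM in WT, Ccdc82+/- and Ccdc82-/-, and of 8.42, 7.77 and 7.63 FPKM in the Q140 groups of the same order. Rasgrf2 had group medians of 36.8, 35.2 and 35.97 FPKM without Q140, and of 35.7, 35.2 and 33.8 FPKM with it. Pou3f2 was at 0.04 (SE 0.024), Lmo3 at 0.05 (SE 0.051) and Calb1 at 0.02 (SE 0.031), with edgeR adjusted p between 0.622 and 0.892. Over the 16 upper layer genes the median log2 difference was -0.02, with 11 below 0, against 0.0009 for all tested genes, of which 49.0% lay below 0. At an unadjusted p under 0.05 there were 3 of the 16, against 9.18% of tested genes.

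Among deep layer genes the 3 with the smallest p-values above 0 were Crym at 0.12 (SE 0.075), Etv1 at 0.05 (SE 0.037) and Rprm at 0.14 (SE 0.10), with edgeR adjusted p of 0.674, 0.722 and 0.742. Crym had group medians of 4.08, 4.71 and 4.34 FPKM without Q140 and of 4.999, 5.31 and 4.95 FPKM with it, with 17 of 23 Q140 mice higher, and the groups overlapped. Etv1 had 17 and Rprm 14 of 23 Q140 mice higher. Below 0 they were Hs3st4 at -0.05 (SE 0.049), Tbr1 at -0.02 (SE 0.020) and Nxph4 at -0.12 (SE 0.145), with edgeR adjusted p between 0.827 and 0.884. The 16 deep layer genes had a median of 0.01, with 9 above 0 and 0 at an unadjusted p under 0.05. Slc17a7, which marks excitatory neurons of all layers, was at -0.03 (SE 0.016, edgeR adjusted p = 0.605), and Slc17a6, Neurod6 and Neurod2 were at -0.01, 0.04 and 0.04. Of the further layer genes listed beside the 38, 0 of 9 upper and 0 of 12 tested deep layer genes were called by edgeR. At an unadjusted p under 0.05 there were 2 and 1, against 9.18% of tested genes, and the medians were -0.01 and 0.01. The SE limits what could be seen in the variable deep layer genes. It was 0.131 for Foxp2, 0.131 for Tshz2 and 0.115 for Syt6, against 0.016 for Slc17a7.

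**Figure D5:**
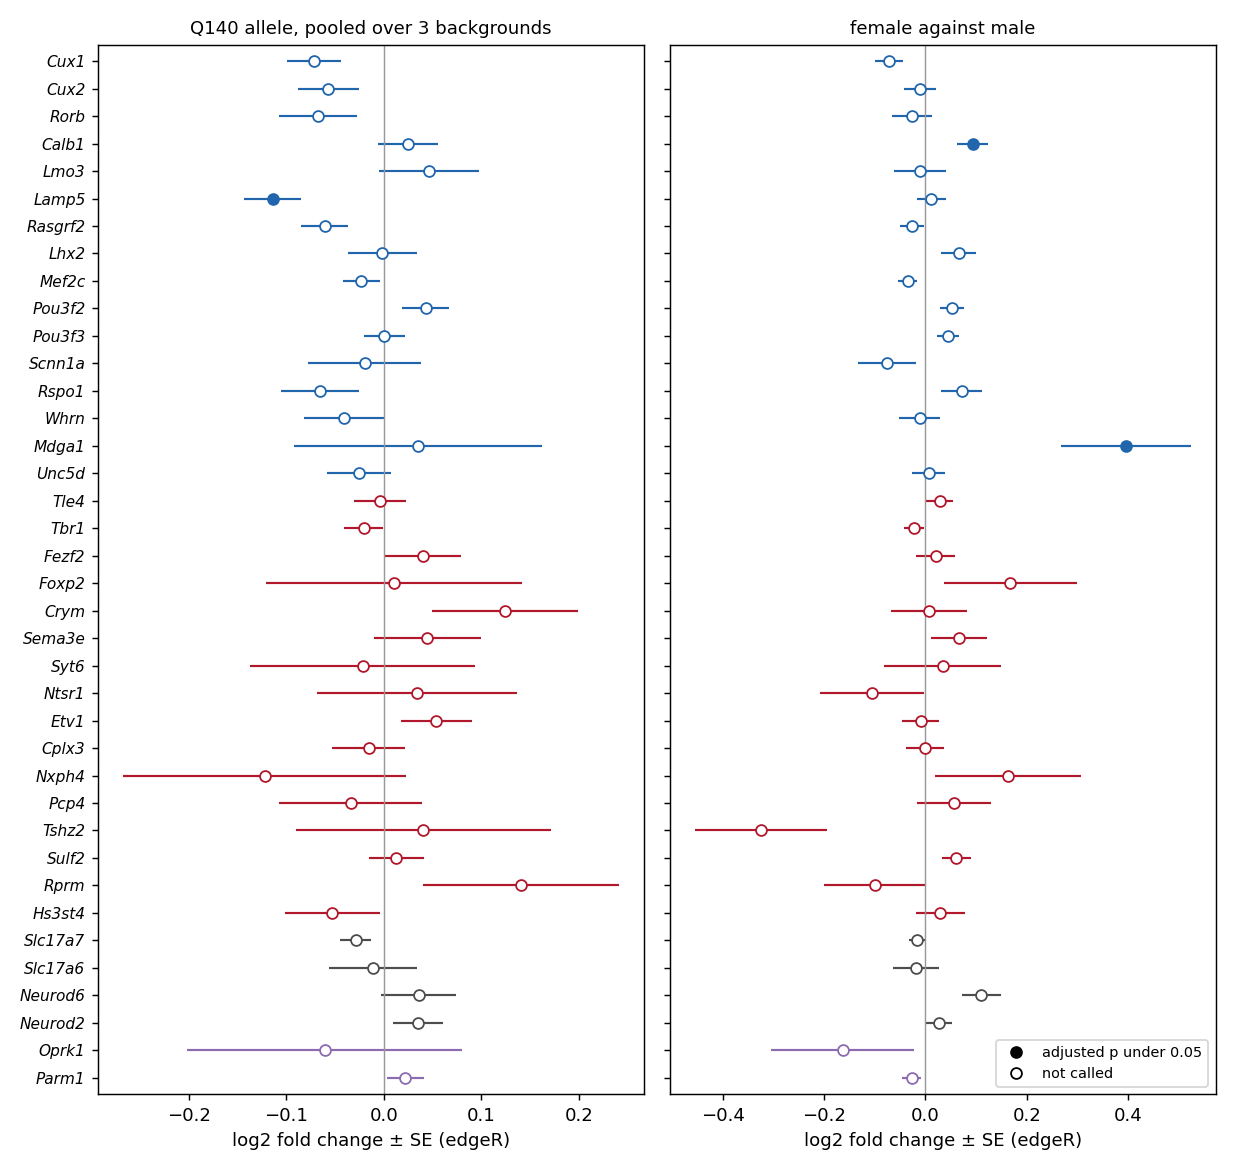
Log2 fold change ± SE (edgeR) of the 38 genes for the pooled Q140 effect (left) and for females against males (right); blue upper layer, red deep layer, grey all-excitatory, purple unassigned, filled where the adjusted p was under 0.05. Lamp5 is filled on the left, at -0.11, and Calb1 and Mdga1 on the right, at 0.09 and 0.40.

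For Q140 against WT alone, 0 of the 38 genes were called by edgeR, against 0.0313% of tested genes, and 0 by DESeq2, with 5 at an unadjusted p under 0.05 against 6.93% of tested genes. The upper layer genes had a median of -0.08, with 14 of 16 below 0, and the deep layer genes a median of 0.06, with 12 of 16 above 0, against 0.0006 for all tested genes. On Ccdc82+/- and on Ccdc82-/- the medians were -0.01 and -0.01 for upper and -0.03 and -0.003 for deep layer genes, and 0 of 38 were called by edgeR or DESeq2 in each, against 0.0313% and 0.0209% of tested genes. An unadjusted p under 0.05 was found for 4 and for 0 of them, against 5.18% and 4.17% of tested genes. The genes of each list vary together between mice, as described above, so their number below or above 0 is not a number of independent observations. The interaction of Q140 with either Ccdc82 genotype called 0 of the 38, against 0% of tested genes, and 1 for each had an unadjusted p under 0.05, against 3.52% and 2.96% of tested genes.

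Loss of Ccdc82 called none of the 38 genes by edgeR or DESeq2. In the effect of Ccdc82+/- pooled over mice with and without Q140, 0.00522% of tested genes were called, and 3 of the 38 had an unadjusted p under 0.05, against 5.31% of tested genes. They were the deep layer genes Etv1 at 0.12 (SE 0.045), Crym at 0.19 (SE 0.091) and Tbr1 at 0.05 (SE 0.024), each with an edgeR adjusted p of 0.905. The upper layer genes had a median of -0.04, with 14 of 16 below 0, and the deep layer genes a median of 0.06, with 14 of 16 above 0, against -0.0005 for all tested genes. In the pooled effect of Ccdc82-/-, with 0.00522% of tested genes called, 0 of the 38 had an unadjusted p under 0.05, against 4.65% of tested genes, with medians of -0.006 for upper and 0.04 for deep layer genes. The 4 comparisons within single backgrounds (each Ccdc82 genotype against WT, and each Q140 X Ccdc82 genotype against Q140) also called 0 of the 38, against 0.00522% of tested genes each. At an unadjusted p under 0.05 there were 6 for Ccdc82+/- against WT (3.6% of tested genes) and 3 for Ccdc82-/- against WT (3.23%). There was 1 each for Q140 X Ccdc82+/- and Q140 X Ccdc82-/- against Q140 (5.42% and 4.09%). All comparisons with WT share its 8 mice, among them WT M1, and the 2 pooled Ccdc82 effects share WT and Q140 mice. The list medians and the numbers of genes above or below 0 were not computed without WT M1.

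Females and males differed in 2 upper layer genes, against 10.5% of tested genes called in either direction and 5.27% called higher in females. Mdga1 was higher in females by 0.40 on the log2 scale (SE 0.128, edgeR adjusted p = 0.0390). In 23 females it ran from 0.794 FPKM through a median of 1.39 to 2.69 FPKM and in 24 males from 0.769 through 0.948 to 1.998 FPKM, so the sexes overlapped, with 18 of 23 females above the male mean of their genotype. Calb1 was higher in females by 0.09 (SE 0.031, edgeR adjusted p = 0.0434), at 22.7 to 29.2 FPKM with a median of 26.1 in females and 21.01 to 32.4 FPKM with a median of 24.5 in males. The highest Calb1 value, 32.4 FPKM, was that of the male WT M1, and 17 of 23 females lay above the male mean of their genotype. Both calls were lost without the filter on low counts (adjusted p = 0.0663 for Mdga1 and 0.0863 for Calb1), with a random block for the number in the library name (0.0822 and 0.131) and with 2 surrogate variables (0.293 for both, where the Mdga1 difference was 0.15). Over all 11 alternatives the Mdga1 call was lost in 3 and the Calb1 call in 6. Both calls were also lost without any 1 of 20 libraries for Mdga1 and 27 for Calb1, up to an adjusted p of 0.0762 without Q140 X Ccdc82-/- F1 and 0.0738 without Ccdc82+/- M1. Without WT M1 and Q140 X Ccdc82+/- M4 the differences were 0.46 for Mdga1 (edgeR adjusted p = 0.0172) and 0.12 for Calb1 (edgeR adjusted p = 0.00187). Beside them 2 of 3 endothelial markers were higher in females (Cldn5 by 0.21 and Flt1 by 0.08), 1 of 7 astrocyte markers was higher (S100b by 0.09) and 3 of 13 interneuron markers were lower (Gad1, Gad2 and Adarb2, at -0.06, -0.05 and -0.10), while 0 of 5 oligodendrocyte markers were called. Among region markers 2 of 8 tested hippocampal genes were higher (Fibcd1 by 0.15 and Trpc6 by 0.13), and 1 of 10 striatal genes (Ppp1r1b) and 1 of 4 tested claustral genes (Gnb4) were lower, both at -0.10. The part of these cell types and regions in the sex differences was not tested.

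Neurod6 was at 0.11 in females against males (SE 0.038, edgeR adjusted p = 0.0543), and Tshz2 at -0.33 (SE 0.131, edgeR adjusted p = 0.101). The deep layer genes, with 0 of 16 called by edgeR and 2 at an unadjusted p under 0.05 (26% of tested genes), had a median of 0.02, and the upper layer genes a median of -0.002, against 0.001 for all tested genes. Of the further deep layer genes, Hsd11b1, an enzyme that regenerates active glucocorticoid, was lower in females by 0.16 (log2 difference -0.16, SE 0.031, edgeR adjusted p = 0.000531). The sex difference of the pooled Q140 effect called 0 of the 38 genes, against 0% of tested genes, and 0 had an unadjusted p under 0.05, against 4.01% of tested genes. For Lamp5 it was -0.008 (SE 0.056), so the Q140 change in the 2 sexes differed by less than its error.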

How the data were processed

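Cortex RNA was extracted and sequenced as stranded TruSeq libraries, per the labels' protocols. The authors deposited raw counts per gene and FPKM values. Per the submitters' processing notes STAR 2.7.5c, SAMtools 1.10 and HTSeq 0.12.3 were used with build GRCm38 (mm10), and no source used here gives the annotation release. Deposited FPKM equalled counts divided by library total and a fixed gene length in all 18150 genes checked, to a relative spread of at most 6.35e-14.

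The 47 columns were matched to samples by library name, and groups were taken from the titles. Counts were tested with edgeR 4.0.16 (R 4.3.3) by the quasi-likelihood test with TMM scaling, genotype means and sex, and filterByExpr (minimum count 10, total 15), which left 19174 of 48795 genes. P-values were adjusted by Benjamini-Hochberg over all of them, and called means an adjusted p under 0.05. P-values measure the spread between mice, 1 library each. The script was tested on simulated data. Relations used log2 CPM (prior count 2) without genotype and sex means, and two-sided p-values came from 100000 permutations within genotype and sex. A list mean averages log2 CPM over its tested genes, and 1 gene of the oligodendrocyte list entered no value; it and 1 gene of a region list are not reported here. Alternatives were DESeq2 1.42.0 (its test, or its size factors in edgeR), no filter, plate column, no sex term, the compared groups alone, a random block for the number in the library name (limma 3.58.1), 2 surrogate variables (sva 3.50.0), limma-trend on log2(FPKM + 0.1) or (FPKM + 1), and a replicate block. Leaving out mice and the oligodendrocyte covariate were added after seeing the data.

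Full statistics were given for genes called in any contrast and for the 3 smallest p-values in each direction in each layer set of the pooled Q140 effect. Other genes named singly, such as those in pairs, were chosen after their values were seen. The members, gene lists and tests were chosen with earlier results of these data known. Gene coordinates and overlaps come from GENCODE M21 (GRCm38), which matched the files' chromosome and strand for all 38 genes.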

Additional observations from a re-analysis of the deposited data

Results flagged for a closer look

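In 23 of 228 combinations of gene and genotype (10.1%), 1 mouse lay apart from the others of its genotype by Dixon's criterion. The nominal rate of about 1 in 20 holds for normally distributed values, and these genes also vary together. The share over all tested genes was not computed, so 10.1% is not shown to be an excess. WT M1 did so in 6 genes. It was the highest WT mouse in Cux2 (26.5 FPKM), Rasgrf2 (42.1 FPKM), Tshz2 (13.5 FPKM) and Slc17a6 (9.24 FPKM), and the lowest in Sema3e (1.90 FPKM) and Sulf2 (15.4 FPKM). Q140 X Ccdc82+/- M4 did so in 4 genes, as the highest of its genotype in Tshz2 (15.4 FPKM), Slc17a6 (9.35 FPKM) and Cplx3 (3.53 FPKM) and the lowest in Sema3e (2.14 FPKM). Tshz2, Slc17a6 and Sema3e thus stood apart in the same direction in both mice.

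Ccdc82+/- M1 was the lowest of its genotype in Cux1 (6.85 FPKM) and Scnn1a (1.33 FPKM) and the highest in Etv1 (15.6 FPKM). Ccdc82+/- F4 was the highest in Lamp5 (135.9 FPKM) and Rspo1 (18.4 FPKM) and the lowest in Slc17a7 (211.1 FPKM). Q140 X Ccdc82+/- M1 was the highest in the 3 layer 6 genes Syt6 (2.30 FPKM), Rprm (14.2 FPKM) and Hs3st4 (10.5 FPKM). Q140 X Ccdc82+/- F3 was the highest in Fezf2 (16.2 FPKM) and the lowest in Scnn1a (1.59 FPKM). For Cux2, Q140 F1 was the lowest Q140 mouse (17.5 FPKM) and Q140 X Ccdc82-/- M3 the highest of its genotype (23.6 FPKM).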

How the results depend on the processing

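The pooled Q140 effect called 1 of the 38 genes, Lamp5. It called 0 without the filter on low counts, with the plate column as a factor, with limma-trend on unfiltered log2(FPKM + 0.1), with the replicate block and without WT M1 and Q140 X Ccdc82+/- M4. Leaving out each mouse in turn gave 0 to 2. In all 13 alternatives Lamp5 stayed between -0.12 and -0.11, with adjusted p from 0.00454 to 0.0884. The female against male count of 2 became 0 without the filter, with the library-name number as a block and with 2 surrogate variables, 1 in each of the 3 limma-trend fits on FPKM, 4 with the plate column and 5 with the oligodendrocyte covariate, and 0 to 3 with each mouse left out. The other 12 counts of called genes were 0 in the 9 to 14 alternatives run for each. The 3 called relations to region markers became 18 on the log2(FPKM + 0.1) scale and 10 with plate column means removed. The pooled Q140 difference of upper minus deep genes, -0.04, lay between -0.05 and -0.04 in 4 alternatives. The cause of these changes was not tested. Replicate numbers did not pair the mice: over 115 pairs of mice with the same number in different genotypes the median r of their deviations was -0.0146 (-0.253 to 0.292), and with the replicate block Lamp5 was at -0.11 (adjusted p = 0.0638).

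Depth limits Nxph4 most, with a mean of 10.4 counts per library. Layer genes mark cells of more than 1 kind (Lamp5 and Calb1 also mark interneurons), and bulk RNA cannot assign their reads to a cell type. Reads of antisense genes that overlap Cux1, Syt6, Tshz2, Sulf2 and Hs3st4 are separated only if counting used strand, which no source used here gives.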

Other observations

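Of the cell type relations beside those with oligodendrocyte markers, the rest not given next were negative relations to the mean of 7 astrocyte markers. They involved 1 of 16 upper layer, 1 of 16 deep layer and 1 of 4 all-excitatory genes, and both Oprk1 and Parm1. A further 4 involved the mean of 3 endothelial markers (Cldn5, Flt1 and Pecam1). Mef2c, a MADS-box factor of excitatory neurons, had r = -0.611 (permutation p = 0.00077, adjusted p = 0.0125) and rho = -0.578 (permutation p = 0.00101, adjusted p = 0.0164), with -0.585 without the 2 farthest mice, -0.885 to -0.308 within plate columns and -0.619 without WT M1 and Q140 X Ccdc82+/- M4. Rorb had r = -0.449 (adjusted p = 0.0398), rho = -0.471 (adjusted p = 0.0308) and -0.395 without the 2 farthest mice. Neurod6 had r = 0.491 (adjusted p = 0.0251), rho = 0.445 (adjusted p = 0.0459) and 0.484 without the 2 farthest mice. Mdga1 had r = 0.457 (adjusted p = 0.0479) and 0.532 without the 2 farthest mice, with a rho of 0.401 that was not called (adjusted p = 0.0876). These permutation p-values were adjusted over 228 pairs of a gene with a cell type list.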
